A study of Mus musculus with 33 samples.

Results

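Collagens are the trimeric proteins that give tissues their fibrils, basement membranes and surface networks, and the genes described here are those that encode their chains in mouse. A gene was included when the platform annotation gave a probe set exactly 1 symbol and that symbol was Col, a type number, a and a chain number. This chose 42 genes of 18193 measured, with 82 probe sets, and 15 of the 42 had 1 probe set. They were separated into 11 fibrillar genes (types 1, 2, 3, 5, 11, 24 and 27), 6 basement membrane genes (type 4) and 25 others, and Col28a1 and Col6a6 were not analysed here.

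The samples were enteric neural crest cells (ENCCs), the migratory cells that form the enteric nervous system, and whole guts, all of mouse embryos at day 14.5 on the C57BL/6 background. ENCCs came from transgenic embryos with Wnt1-Cre-recombinase and LoxP/R26-YFP, in which YFP marks cells whose lineage expressed Wnt1, and were sorted by that fluorescence and cultured on fibronectin with FGF and EGF. The cells of 1 gut were divided over a well that received 50 ng/ml GDNF, the ligand of the receptor RET, and a well that did not. GDNF-treated ENCCs were read on 13 arrays and untreated ENCCs on 12, from 9 guts, and whole guts of wild type embryos, dissected from duodenum to anus and neither sorted nor cultured, on 8 arrays. The labels state neither the length of culture nor whether embryos shared a litter, and 1 label field of the whole guts names ENCCs as their cell type. Sorting, culture and genotype therefore cannot be told apart from cell identity in any comparison with whole gut.

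Each collagen chain folds with others into a triple helix in the endoplasmic reticulum after prolines and lysines have been hydroxylated. Fibrillar chains are then trimmed outside the cell and crosslinked into fibrils, whereas type IV chains keep their ends and join laminins, nidogens and perlecan in basement membranes. In the developing gut ENCCs migrate through a collagen-rich mesenchyme. Excess type VI collagen slows that migration, and in chick gut ENCCs themselves deposit collagen XVIII.

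Promoter windows of 6 collagen genes are shown because these genes carry the GDNF results below, as the head to head pair Col4a1 and Col4a2, which lay higher with GDNF, and as Col4a5 and 3 fibrillar genes, which lay lower. The windows run from 250 bases before to 50 bases after a listed transcript start, 5′ to 3′ on the strand of the gene, and come from RefSeq for GRCm38.p6. For Col4a1, Col4a5 and Col5a1 that start lies inside the annotated gene and not at its outer end. They lie at chr8:11312777-11313076 (minus strand) for Col4a1, chr8:11312555-11312854 (plus) for Col4a2, chrX:141475169-141475468 (plus) for Col4a5, chr6:4505368-4505667 (plus) for Col1a2, chr1:45311288-45311587 (plus) for Col3a1 and chr2:27886175-27886474 (plus) for Col5a1. Capitals mark the CCAAT box, the GC box (GGGCGG) and the TATA box (TATAAA), read on either strand.
Col4a1: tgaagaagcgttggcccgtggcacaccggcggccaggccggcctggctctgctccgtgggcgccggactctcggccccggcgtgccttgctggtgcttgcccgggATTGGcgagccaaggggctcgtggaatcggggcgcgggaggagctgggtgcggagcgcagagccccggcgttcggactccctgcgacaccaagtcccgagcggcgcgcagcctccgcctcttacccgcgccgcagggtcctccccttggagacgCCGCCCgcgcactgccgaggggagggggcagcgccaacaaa
Col4a2: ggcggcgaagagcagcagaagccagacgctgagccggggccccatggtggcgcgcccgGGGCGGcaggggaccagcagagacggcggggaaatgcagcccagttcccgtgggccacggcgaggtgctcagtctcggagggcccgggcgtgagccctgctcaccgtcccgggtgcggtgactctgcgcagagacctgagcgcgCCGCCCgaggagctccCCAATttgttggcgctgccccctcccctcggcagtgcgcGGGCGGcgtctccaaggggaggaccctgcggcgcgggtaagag
Col4a5: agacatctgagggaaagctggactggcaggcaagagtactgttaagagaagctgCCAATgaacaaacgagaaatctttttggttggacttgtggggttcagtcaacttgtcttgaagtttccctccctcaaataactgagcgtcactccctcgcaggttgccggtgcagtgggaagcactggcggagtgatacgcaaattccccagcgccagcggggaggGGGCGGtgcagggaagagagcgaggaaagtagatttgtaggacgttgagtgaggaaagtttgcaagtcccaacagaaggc
Col1a2: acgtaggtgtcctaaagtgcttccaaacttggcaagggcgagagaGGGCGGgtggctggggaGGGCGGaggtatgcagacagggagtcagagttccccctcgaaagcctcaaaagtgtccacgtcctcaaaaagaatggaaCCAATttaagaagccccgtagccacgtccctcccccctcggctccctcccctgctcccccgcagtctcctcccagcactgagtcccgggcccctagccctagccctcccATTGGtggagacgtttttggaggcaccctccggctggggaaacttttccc
Col3a1: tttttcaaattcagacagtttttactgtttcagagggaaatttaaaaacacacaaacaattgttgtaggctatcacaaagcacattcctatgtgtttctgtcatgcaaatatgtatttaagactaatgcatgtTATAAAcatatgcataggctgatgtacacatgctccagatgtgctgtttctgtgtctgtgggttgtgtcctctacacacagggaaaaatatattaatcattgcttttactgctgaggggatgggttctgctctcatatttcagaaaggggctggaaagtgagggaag
Col5a1: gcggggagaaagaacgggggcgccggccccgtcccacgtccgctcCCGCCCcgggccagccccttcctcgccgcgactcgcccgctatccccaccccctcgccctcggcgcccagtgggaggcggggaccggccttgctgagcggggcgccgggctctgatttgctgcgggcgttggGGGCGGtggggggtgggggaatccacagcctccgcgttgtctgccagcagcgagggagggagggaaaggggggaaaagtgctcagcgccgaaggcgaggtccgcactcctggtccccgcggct
The windows of Col4a1 and Col4a2 overlap by 78 bases, since the genes start close together on opposite strands. Windows were found for 33 of the 42 genes. CCAAT was in 5 of the 12 such genes that were lower with GDNF, in 2 of 3 that were higher and in 6 of 18 that were not called, against 37.4% of all 32851 windows. GGGCGG was in 9 of the 12, 2 of the 3 and 10 of the 18, against 35.7%, and TATAAA in 1, 0 and 4, against 13.6%. A gene was counted if any of its windows held the letters (36 windows for the 33 genes), while the percentages are shares of windows, so the units differ. The GGGCGG letters of Col4a1 lie in the 78 bases shared with Col4a2. These letters describe the windows and were not tested as sites.

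All values are scores: the deposited file ranks the probe sets of an array and gives each the normal quantile of its rank, apparently after every probe set was centred and scaled on ENCC arrays. The score of a gene is the mean over its probe sets. A score near 0 is a typical ENCC value for that gene, so scores of different genes are not comparable levels, and a difference is in score units and is no fold change. Of the 18 ENCC RNAs, 7 were read in both batches that the titles name, and across the 42 genes their scores in batch 1 and batch 2 correlated with r of 0.306 to 0.809, with the lowest for the untreated well of gut 3. That array in batch 2 also stood apart over all probe sets (r = 0.117 with its own RNA in batch 1, against 0.159 with another RNA). The counts of collagen calls that rest on it, and the collagen genes whose call changed, are given with and without it. Progenitor, neuron, epithelial and endothelial markers checked the labelled cells against whole gut (limma, adjusted p under 0.05). Of 10 measured genes of enteric progenitors and glia, 8 were higher in GDNF-treated and 6 in untreated ENCCs. Of 11 neuron markers, 11 were higher in treated and 8 in untreated ENCCs. All 12 epithelial and all 10 endothelial markers were lower in each. Of all genes 16.0% were higher and 15.9% lower in treated ENCCs, and 9.01% and 11.7% in untreated ENCCs. The epithelial markers averaged -0.37 to 0.43 in treated wells, -0.74 to 0.68 in untreated wells and 2.60 to 2.69 in whole guts, against the label field that names whole guts as ENCCs.

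With GDNF, 6 of the 11 fibrillar genes fell, among them both type I chains and the type III chain, and the basement membrane genes Col4a1 and Col4a2 rose. Of the 42 collagen genes, 16 fell and 3 rose (limma on the 9 within-gut differences, Benjamini-Hochberg over all genes, threshold 0.05), against 13.2% of all genes lower and 18.3% higher, or 31.5% called. The median difference was -0.40 over the collagens and 0.01 over all genes. Among fibrillar genes 6 of 11 fell and 0 rose, among type IV genes 1 of 6 fell and 2 rose, and among the others 9 of 25 fell and 1 rose. The class medians were -1.10, 0.02 and -0.33. Of the 42 genes 8 were lower in all 9 guts, against 6.13% of all genes, and 0 were higher in all 9, against 11.7%. For each of the 42 genes the range of the treated wells overlapped that of the untreated wells. In a fit with no pairing of wells, 16 of the 19 called genes were called again, 3 higher and 13 lower. Without the gut 3 array that stood apart, 4 genes rose and 16 fell.

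**Figure D1:**
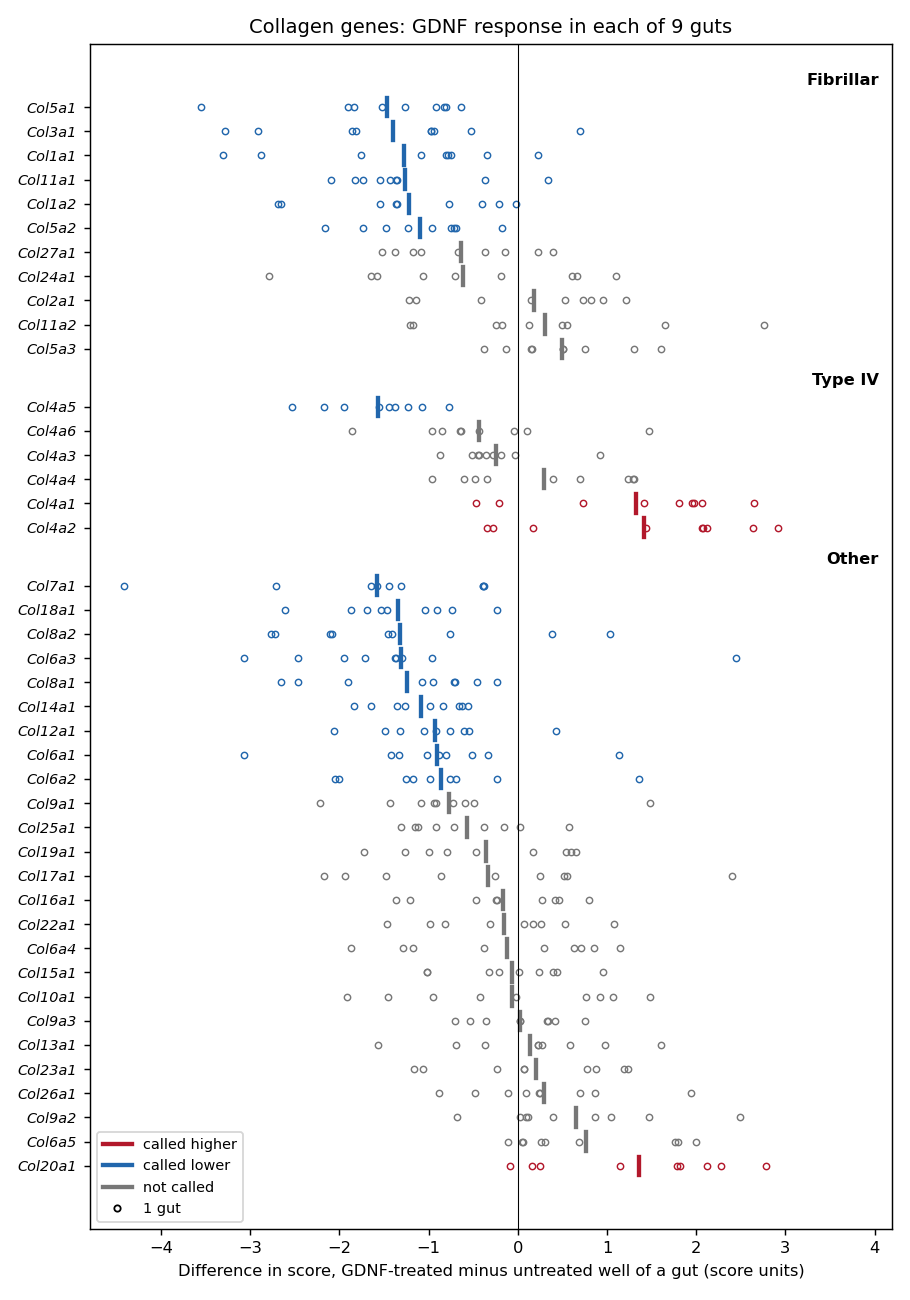
Difference in score between the GDNF-treated and the untreated well of each gut (x axis, score units) for the 42 collagen genes (y axis), by class. Circles are single guts, bars the mean of 9 guts, and colours the limma call; 16 genes lie lower and 3 higher.

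Col1a1 and Col1a2 encode the chains of type I collagen, the main fibril of connective tissue. Col1a1 scored -2.27 to 0.47 in the 9 treated wells (median -1.17), against -1.46 to 1.40 in the 9 untreated wells (median 0.58). The treated well was the lower one in every gut but gut 4, and Col1a1 fell by 1.28 ± 1.16 (SD, n = 9; limma adjusted p = 0.0111). Col1a2 scored -1.36 to 0.60 in treated wells (median -0.73), against -0.71 to 1.55 in untreated wells (median 0.72). It fell by 1.22 ± 0.98 (adjusted p = 0.00726), was lower in 9 of 9 guts, and in gut 1 the difference was only -0.02. Col3a1, the chain of type III collagen, which forms fibrils together with type I, scored -2.18 to 0.40 in treated wells (median -1.13), against -1.66 to 1.43 in untreated wells (median 0.74). Col3a1 fell by 1.40 ± 1.22 (adjusted p = 0.00832) and was lower in 8 guts.

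Col5a1 and Col5a2 encode type V chains, which start fibrils and set their width. Col5a1 scored -1.89 to 0.32 in treated wells (median -0.81), against -0.56 to 1.66 in untreated wells (median 0.70). It was lower in all 9 guts and fell by 1.47 ± 0.91 (adjusted p = 0.00157), most in gut 2 at -3.55. Col5a2 scored -1.88 to 0.49 in treated wells (median -0.33), against -0.28 to 1.21 in untreated wells (median 0.73). It too was lower in all 9 guts and fell by 1.10 ± 0.61 (adjusted p = 0.00272). Within batch 2, with 4 guts, Col5a2 differed by only -0.12, and between batches its probe sets had r of -0.013 and 0.170 over the 7 RNAs read in both.

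Col11a1, a type XI chain of thin fibrils known best from cartilage, scored -1.66 to -0.20 in treated wells (median -0.61), against -1.29 to 1.22 in untreated wells (median 0.98). All 9 treated wells were below 0, and Col11a1 fell by 1.27 ± 0.77 (SD, n = 9; limma adjusted p = 0.00226), with gut 4 alone higher. Col2a1, the major cartilage fibril chain, scored -0.80 to 0.67 in treated wells (median 0.24), against -1.58 to 1.19 in untreated wells (median -0.07). It was not called, at 0.18 ± 0.90 (adjusted p = 0.687), and 6 guts were higher. The other 4 fibrillar genes did not pass: Col27a1 was at -0.64, Col24a1 at -0.62, Col11a2 at 0.31 and Col5a3 at 0.50. With the probe set that was most reproducible between batches, Col27a1 passed at -0.72 (adjusted p = 0.0482) and Col5a3 at 1.18 (adjusted p = 0.0146). That probe set of Col5a3 had r of only 0.324 between batches, and its other probe set was at -0.19.

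**Figure D2:**
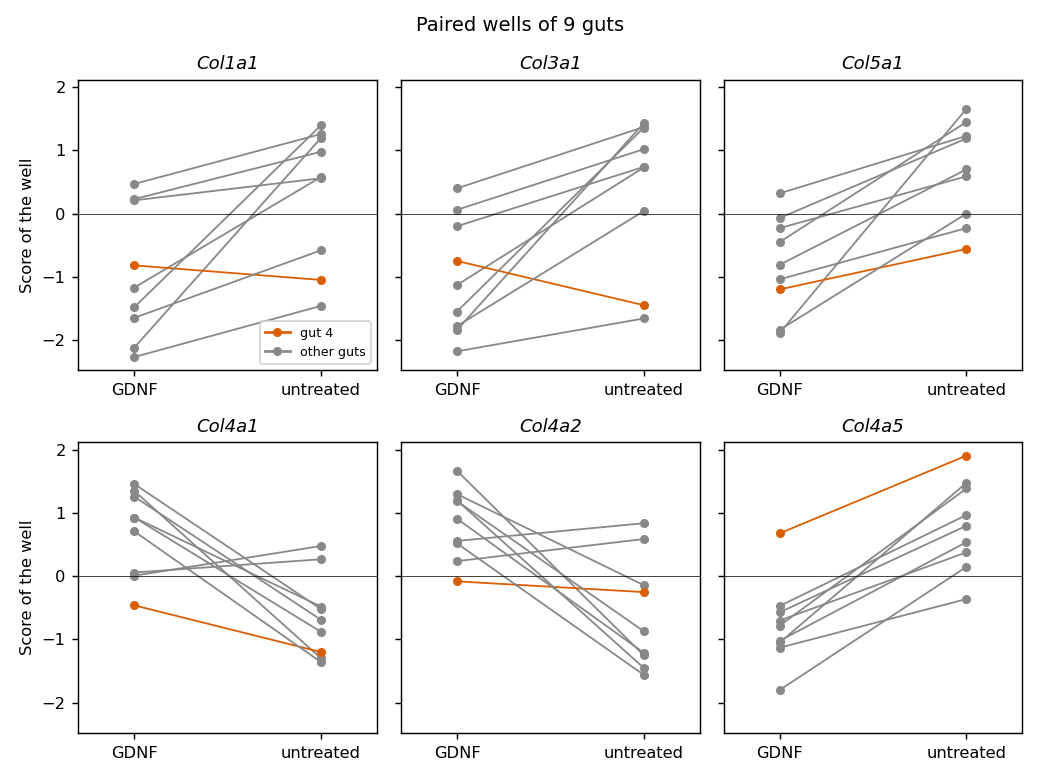
Scores of the GDNF-treated and the untreated well of each of 9 guts (x axis; y axis, score) for 6 collagen genes, with lines joining the wells of 1 gut and gut 4 in orange. Col1a1, Col3a1, Col5a1 and Col4a5 slope up towards the untreated well in most or all guts, while Col4a1 and Col4a2 slope down in 7 of 9.

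Type IV collagen forms the sheet of basement membranes, and Col4a1 and Col4a2 encode its most widespread chains. Col4a1 scored -0.46 to 1.46 in treated wells (median 0.93), against -1.36 to 0.48 in untreated wells (median -0.69). It rose by 1.32 ± 1.08 (SD, n = 9; limma adjusted p = 0.00656), with the largest difference in gut 1 (2.65) and differences below 0 in guts 2 (-0.47) and 5 (-0.21). Col4a2 scored -0.08 to 1.67 in treated wells (median 0.91), against -1.56 to 0.84 in untreated wells (median -0.87). It rose by 1.42 ± 1.26 (adjusted p = 0.00845), again most in gut 1 (2.92) and below 0 in guts 2 (-0.35) and 5 (-0.28). In these 2 guts the untreated wells already scored above 0 for both genes. Both calls ended when the difference in the 18 hybridisation control probe sets, which was below 0 in 6 of 9 guts, entered the fit (Col4a1 1.18, adjusted p = 0.0545; Col4a2 1.35, adjusted p = 0.0519).

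Col4a5, an X-linked type IV chain of more restricted basement membranes, went the other way. It scored -1.80 to 0.68 in treated wells (median -0.78), against -0.36 to 1.91 in untreated wells (median 0.80). It was lower in all 9 guts, with single guts between -2.53 and -0.77, and fell by 1.57 ± 0.56 (SD, n = 9; limma adjusted p = 0.000195), the lowest adjusted p of the 42 genes. Its 2 probe sets were at -1.70 and -1.43. Col4a6, its head to head neighbour, was at -0.43, Col4a3 at -0.25 and Col4a4 at 0.29, none of which passed. Of the 7 neighbouring pairs of collagen genes in the RefSeq annotation, Col4a1 with Col4a2 were both higher, Col3a1 with Col5a2 and Col6a1 with Col6a2 were both lower, Col4a5 with Col4a6 had 1 call, and the other 3 pairs had none.

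Type VI collagen forms beaded filaments around cells from the chains of Col6a1, Col6a2 and Col6a3. Col6a1 scored -2.21 to 0.56 in treated wells (median -1.09), against -2.22 to 1.17 in untreated wells (median 0.77), and fell by 0.91 ± 1.11 (SD, n = 9; limma adjusted p = 0.0486). Col6a2 scored -2.21 to 0.47 in treated wells (median -0.78), against -2.08 to 1.23 in untreated wells (median 0.66), and fell by 0.86 ± 1.02 (adjusted p = 0.0488). Col6a3 scored -2.96 to 0.39 in treated wells (median -0.96), against -3.08 to 1.90 in untreated wells (median 0.99), and fell by 1.31 ± 1.55 (adjusted p = 0.0319). These 3 genes were lower in the same 8 guts and higher in gut 4, at 1.13, 1.36 and 2.45. In gut 4 Col6a3 scored -0.64 in the treated and -3.08 in the untreated well, which was the lowest untreated score. Without gut 4 the differences were -1.17 for Col6a1 (adjusted p = 0.00949), -1.14 for Col6a2 (0.00479) and -1.78 for Col6a3 (0.000483). Leaving out other guts ended the calls: Col6a1 and Col6a2 lost theirs without any of the other 8 guts and Col6a3 without any of 7 (all but 4 and 8), with adjusted p up to 0.108, 0.116 and 0.0800. All 3 also lost the call once the hybridisation controls entered the fit. Col6a4 at -0.12 and Col6a5 at 0.76 did not pass, and Col6a5 passed without gut 1 (0.84, adjusted p = 0.0431), without gut 3 (0.86, adjusted p = 0.0428) and when only the batch 2 array of the untreated well of gut 3 was dropped (0.81, adjusted p = 0.0343).

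Col18a1 encodes a basement membrane collagen whose end fragment is endostatin. It scored -1.99 to 0.15 in treated wells (median -0.89), against -0.95 to 1.73 in untreated wells (median 0.76). It was lower in all 9 guts and fell by 1.34 ± 0.70 (SD, n = 9; limma adjusted p = 0.00109), and its 2 probe sets were at -1.35 and -1.33. Col7a1, the chain of anchoring fibrils, scored -1.84 to -0.38 in treated wells (median -0.82), against -0.42 to 2.57 in untreated wells (median 0.55). It was lower in all 9 guts and fell by 1.58 ± 1.31 (adjusted p = 0.00519), with gut 1 at -4.41 and a mean of -1.23 without it.

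Col8a1 and Col8a2 encode the short chains of type VIII collagen, a network of vessel walls and the cornea. Col8a2 scored -1.79 to 0.32 in treated wells (median -0.41), against -1.32 to 1.89 in untreated wells (median 0.98). It was lower in 7 guts and fell by 1.32 ± 1.33 (SD, n = 9; limma adjusted p = 0.0158). Col8a1 scored -1.98 to 0.76 in treated wells (median -1.09), against -1.52 to 1.57 in untreated wells (median 0.44). It fell by 1.24 ± 0.88 (adjusted p = 0.00434) and was lower in all 9 guts. Col14a1 and Col12a1, which sit on the surface of fibrils, fell by 1.09 ± 0.47 (adjusted p = 0.00149) and 0.93 ± 0.70 (adjusted p = 0.0112). Col12a1 did not pass with its most reproducible probe set (-0.63, adjusted p = 0.222).

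Col20a1, a further collagen of the fibril-associated group, also rose. It scored -0.02 to 2.33 in treated wells (median 1.00), against -2.11 to 1.37 in untreated wells (median -0.79). It was higher in 8 guts and rose by 1.36 ± 1.04 (SD, n = 9; limma adjusted p = 0.00464), with gut 2 at -0.09, and its 4 probe sets were at 1.31 to 1.41. The 15 others without a call had differences of -0.77 (Col9a1) to 0.76 (Col6a5). Col9a1, a type IX chain bound to thin fibrils, passed without gut 4 (-1.05, adjusted p = 0.00577) and with the hybridisation controls in the fit (-1.13, adjusted p = 0.0360). Col25a1, a transmembrane collagen of neurons, was at -0.57 and passed with those controls in the fit (-0.95, adjusted p = 0.0164) and without gut 1 (-0.72, adjusted p = 0.0263).

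All 19 called genes had the same sign in batch 1 alone and in batch 2 alone. These genes were called on arrays of both batches, and some RNAs were read in both, so the shared sign is no independent replication. With only the 4 guts of batch 2 no gene of those measured passed in limma (0 called), and 17 of the 42 collagens had an unadjusted p under 0.05, against 19.3% of all genes. Guts differed in the response. Of the 42 genes, 16 were lower in gut 4, against 23 to 32 in the others, and of the 16 genes that fell, 9 were below 0 in gut 4, 14 in gut 1 and all 16 in the other 7 guts. Guts 1, 4 and 5 were the ones with Col1a1 below 0 in both wells, at -2.27 in the treated and -1.46 in the untreated well of gut 1, -0.82 and -1.05 in those of gut 4, and -1.65 and -0.58 in those of gut 5.

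Genes that make, trim and bind collagen were tested in the same fit, and more of them fell than rose. Of 21 measured genes of collagen synthesis and export 12 fell and 0 rose, with a median difference of -1.18. Among them P3h1 and P3h4, of the prolyl 3-hydroxylase group, fell by 1.58 ± 0.79 (SD, n = 9; limma adjusted p = 0.000544) and 1.54 ± 0.42 (adjusted p = 0.000130), and P4hb, a subunit of prolyl 4-hydroxylase, fell by 1.5 ± 0.79 (adjusted p = 0.000789). Of 12 genes of trimming and crosslinking 7 fell and 2 rose (median -0.84). The crosslinking oxidases Loxl1, Loxl3 and Lox fell by 1.41 ± 0.68, 1.25 ± 0.69 and 1.23 ± 0.97. Loxl4, of the same family, rose by 1.04 ± 1.01, and Tll2, a tolloid-like protease, by 1.56 ± 0.62. Of 14 collagen-binding matrix proteins 7 fell and 0 rose (median -1.04), led by Tgfbi (-1.64 ± 0.78), Bgn, which encodes biglycan (-1.52 ± 0.92), and fibronectin, Fn1 (-1.46 ± 0.92). Of 11 basement membrane partners of type IV collagen 4 fell and 0 rose (median -0.73), among them the laminin chains Lama2 (-1.56 ± 0.89), Lama5 (-1.28 ± 0.72) and Lamb2 (-1.09 ± 0.57). Of 10 collagen receptors 4 fell and 1 rose (median -0.52). The receptor kinases Ddr1 and Ddr2 fell by 1.09 ± 0.25 and 0.88 ± 0.96, Adgrg6, an adhesion receptor that binds type IV collagen, fell by 0.77 ± 0.73, and the integrin chain Itga1 rose by 0.77 ± 0.52. The share of all genes called was 13.2% lower and 18.3% higher.

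**Figure D3:**
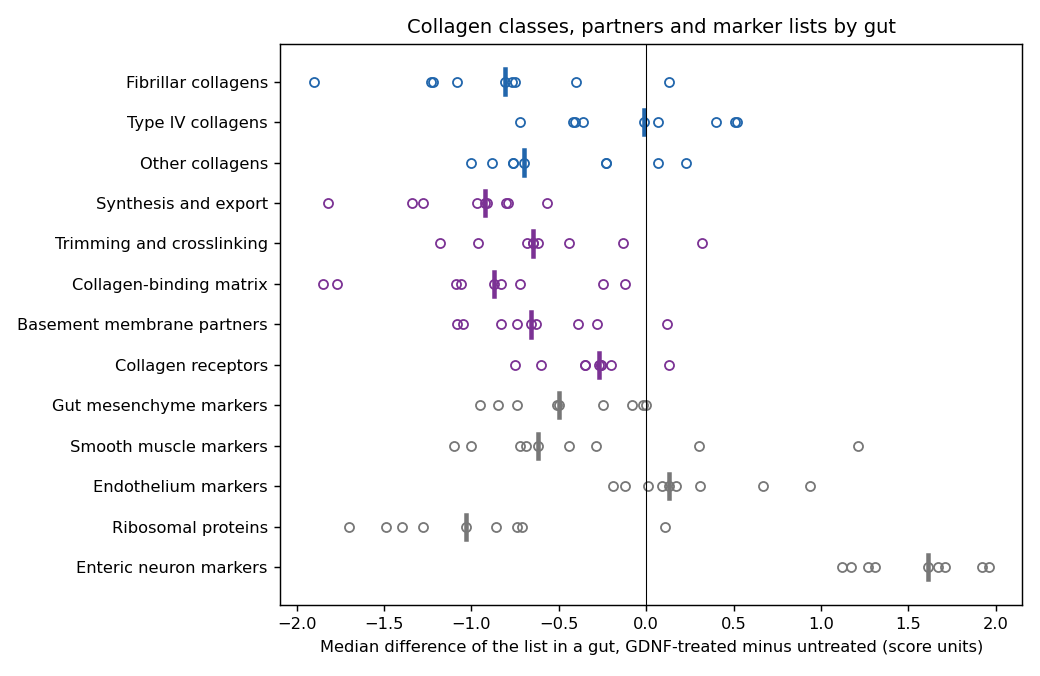
Median difference of each list in a gut, GDNF-treated minus untreated (x axis, score units), for the collagen classes (blue), collagen partner lists (purple) and marker lists (grey). Circles are 9 guts and bars their median; synthesis genes lie below 0 in all 9 guts and neuron markers above 0 in all 9.

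Markers of other cells and ribosomal protein genes were tested in the same fit, in which 13.2% of all genes were lower and 18.3% higher. Of 14 markers of gut mesenchyme, a tissue rich in collagen that the sort was meant to remove, 4 fell and 0 rose, namely Osr1 (-1.76 ± 0.82), Pdgfrb (-1.35 ± 0.71), Twist1 (-1.08 ± 0.77) and Prrx1 (-0.87 ± 0.80; SD, n = 9). The median difference of the 14 markers per gut was -0.95 to 0.00 and was below 0 in 8 guts. The 4 that fell were not called lower in untreated ENCCs than in whole gut. There Osr1 (-0.64), Pdgfrb (0.15) and Twist1 (0.62) had no call, and Prrx1 was higher (1.69). Pdgfra, Foxf1, Tcf21 and Nkx2-3 were called lower there and did not pass with GDNF (-0.12, -0.49, 0.39 and 0.35). Of 10 smooth muscle markers 0 passed (medians per gut -1.10 to 1.21), and of 10 endothelium markers 1 rose, Pecam1 (medians -0.19 to 0.94). Of 6 measured ribosomal protein genes, listed as a sign of RNA quality but not tested as one, 5 fell and 0 rose (medians per gut -1.70 to 0.11). Of 11 neuron markers 9 rose and 0 fell (medians 1.12 to 1.96). The part of these shifts in the collagen result was not tested, and in these bulk wells fewer cells of a type and less RNA per cell cannot be told apart.

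Against whole gut, untreated ENCCs had collagens on both sides. In batch 2, the only batch with whole guts, 6 of 42 collagen genes were higher in the 4 untreated wells than in the 8 whole guts and 5 were lower (limma with a variance for each group, adjusted p under 0.05), against 9.01% and 11.7% of all genes, or 20.7% called. The median difference was -0.05, against -0.01 over all genes. The calls were 1 higher of 11 fibrillar genes, 1 lower of 6 type IV genes, and 5 higher and 4 lower of 25 others. The groups did not overlap for 6 genes that were higher and 3 that were lower, against 12.4% and 15.2% of all genes. Without the array of gut 3 that stood apart the counts were 9 higher and 7 lower, and of the 11 calls Col4a6 and Col9a3 were lost. With the spread taken from the ENCCs alone 5 were higher and 4 lower, against 8.70% and 11.9% of all genes.

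Col18a1 stood highest over whole gut. Its scores were 0.77, -0.48, 1.53 and 1.95 in untreated wells of guts 2, 3, 8 and 9, against -1.92 to -1.85 in whole guts (median -1.89). All 4 wells lay above all whole guts, by 2.83 on average (limma SE 0.33, adjusted p = 6.7e-05). Col8a1 scored 1.06, -0.19, 1.55 and 0.73 in untreated wells, against -1.59 to -1.52 in whole guts (median -1.54), a difference of 2.33 (SE 0.27, adjusted p = 6.8e-05). Col11a1 scored 1.13, -0.41, 1.25 and 1.17 in untreated wells, against -1.31 to -1.18 in whole guts (median -1.29), a difference of 2.06 (SE 0.29, adjusted p = 0.000253). For both genes the well of gut 3 was the lowest and still above every whole gut. Col20a1 scored 0.64, -0.59, -1.60 and -0.58 in untreated wells, against -2.22 to -2.11 in whole guts (median -2.16), a difference of 1.63 (SE 0.31, adjusted p = 0.00201). Col7a1 was higher by 1.46 and Col9a3 by 0.79. Col7a1 lost its call without gut 8 (1.21, adjusted p = 0.114). For Col9a3, 11 of the 12 samples ended the call when left out, among them all 4 untreated wells, with adjusted p up to 0.241. The call of Col9a3 also ended with the spread of the ENCCs alone (adjusted p = 0.156).

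The 5 genes that were lower in untreated ENCCs were Col23a1, Col13a1, Col9a2, Col22a1 and Col4a6. Col23a1, a transmembrane collagen, scored 2.08, -0.19, -1.06 and -0.70 in untreated wells, against 1.91 to 2.13 in whole guts (median 1.99). The well of gut 2 lay within the range of the whole guts and the other 3 below it, and the difference was -1.96 (limma SE 0.42, adjusted p = 0.00438). Col13a1, a transmembrane collagen of cell junctions, scored 1.05, 0.85, -1.41 and -0.53 in untreated wells, against 1.79 to 1.89 in whole guts (median 1.84), a difference of -1.85 (SE 0.35, adjusted p = 0.00208). Col9a2 scored -1.32, 0.43, -1.49 and -1.33 in untreated wells, against 0.65 to 1.01 in whole guts (median 0.81), a difference of -1.75 (SE 0.39, adjusted p = 0.00580). Col13a1 and Col9a2 were below all whole guts in all 4 wells. Col9a2 lost its call without gut 2 (-1.62, adjusted p = 0.0507) or gut 8 (-1.56, adjusted p = 0.0525). Col22a1, of tissue junctions, was lower by -1.57 and lost its call without gut 8 (-1.31, adjusted p = 0.0730). Col4a6 scored -1.48, 0.21, 1.10 and 0.08 in untreated wells, against 1.06 to 1.44 in whole guts (median 1.18), a difference of -1.24 (SE 0.41, adjusted p = 0.0471). Without gut 2 it was -0.75 (adjusted p = 0.341), and 9 of the 12 samples ended the call when left out.

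The main fibril genes did not pass between untreated ENCCs and whole gut. Col1a1 scored 1.20, 0.22, 0.95 and 0.70 in untreated wells, against 0.22 to 0.38 in whole guts (median 0.30), a difference of 0.47 (limma SE 0.25, adjusted p = 0.234). The wells of guts 2, 8 and 9, lay above all whole guts, and without gut 3 the difference passed at 0.65 (adjusted p = 0.0448). Col1a2 scored 1.55, -0.19, 1.20 and 1.25 in untreated wells, against 1.33 to 1.62 in whole guts (median 1.57), a difference of -0.60 (SE 0.33, adjusted p = 0.257). Col3a1 scored 1.43, 0.31, 1.14 and 0.89 in untreated wells, against 0.86 to 0.99 in whole guts (median 0.93), a difference of 0.01 (SE 0.25, adjusted p = 0.989). The ranges of Col1a2 and Col3a1 overlapped those of whole gut. Col6a3 scored 1.90, 0.73, 0.66 and 1.08 in untreated wells, against 1.44 to 1.54 in whole guts (median 1.5), a difference of -0.40 (SE 0.26, adjusted p = 0.335). Col4a5 scored 1.39, 0.83, 1.08 and 0.60 in untreated wells, against 0.93 to 1.03 in whole guts (median 0.99), a difference of -0.02 (SE 0.23, adjusted p = 0.982). For both genes the wells lay on either side of the whole guts. Other genes that passed without gut 3 and not with it were Col5a1 (0.95), Col5a3 (1.07), Col16a1 (1.64), Col24a1 (-1.08), Col2a1 (-1.57) and Col6a4 (-1.30).

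Further type IV, V and VI genes and Col2a1 did not pass between the 4 untreated wells and whole gut. Col5a1 scored 1.66, 0.26, 1.43 and 0.64 in untreated wells, against 0.14 to 0.40 in whole guts (median 0.32; difference 0.71, limma adjusted p = 0.152). Col5a2 scored 0.93, -1.47, 0.99 and 0.87 in untreated wells, against -0.12 to 0.27 in whole guts (median -0.01; difference 0.32, adjusted p = 0.707). For both genes the wells of guts 2, 8 and 9 lay above all whole guts and gut 3 did not. Col2a1 scored -1.58, 1.09, -0.69 and -1.18 in untreated wells, against 0.23 to 0.71 in whole guts (median 0.37; difference -1.01, adjusted p = 0.194), with gut 3 alone above. Col4a1 scored 0.48, -0.95, -0.33 and -0.98 in untreated wells, against -0.16 to 0.08 in whole guts (median -0.01; difference -0.42, adjusted p = 0.439). Col4a2 scored 0.59, -0.47, -1.27 and -1.60 in untreated wells, against -1.03 to -0.84 in whole guts (median -0.93; difference 0.25, adjusted p = 0.710). Both had gut 2 above the whole guts and guts 8 and 9 below. Col6a1 scored 0.86, -0.10, 1.20 and 0.83 in untreated wells, against 0.86 to 0.97 in whole guts (median 0.90; difference -0.21, adjusted p = 0.659). Col6a2 scored 0.94, -0.56, 1.17 and 0.74 in untreated wells, against 0.92 to 1.00 in whole guts (median 0.96; difference -0.39, adjusted p = 0.409). Gut 8 was above and guts 3 and 9 below the whole guts for both. Col5a3 was at 0.83 (adjusted p = 0.0671), with 3 wells above all whole guts and 0 below. Col6a4 at -0.98 (adjusted p = 0.0645) and Col6a5 at -0.91 (adjusted p = 0.335) each had 3 wells below and 0 above. Col4a3 at 0.30 (adjusted p = 0.755) and Col4a4 at 0.19 (adjusted p = 0.861) had wells on both sides.

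In GDNF-treated ENCCs more collagens were called below whole gut than above it. Of the 42 genes 8 were higher and 16 lower in the 4 treated wells of batch 2 than in the 8 whole guts (limma with a variance for each group, adjusted p under 0.05), against 16.0% and 15.9% of all genes, or 31.9% called. The median difference was -0.65, against -0.02 over all genes. Among fibrillar genes 2 were higher and 5 lower, among type IV genes 2 and 2, and among the others 4 and 9. The groups did not overlap for 6 genes that were higher and 16 that were lower, against 17.8% and 17.1% of all genes. The whole guts are the same arrays as in the comparison with untreated wells, so the 2 comparisons are not independent, and the difference between treated and untreated wells is tested only by the paired fit, which holds these ENCC arrays too. With the spread taken from the ENCCs alone 4 genes were higher and 12 lower, against 14.7% and 13.1% of all genes, or 27.8% called.

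**Figure D4:**
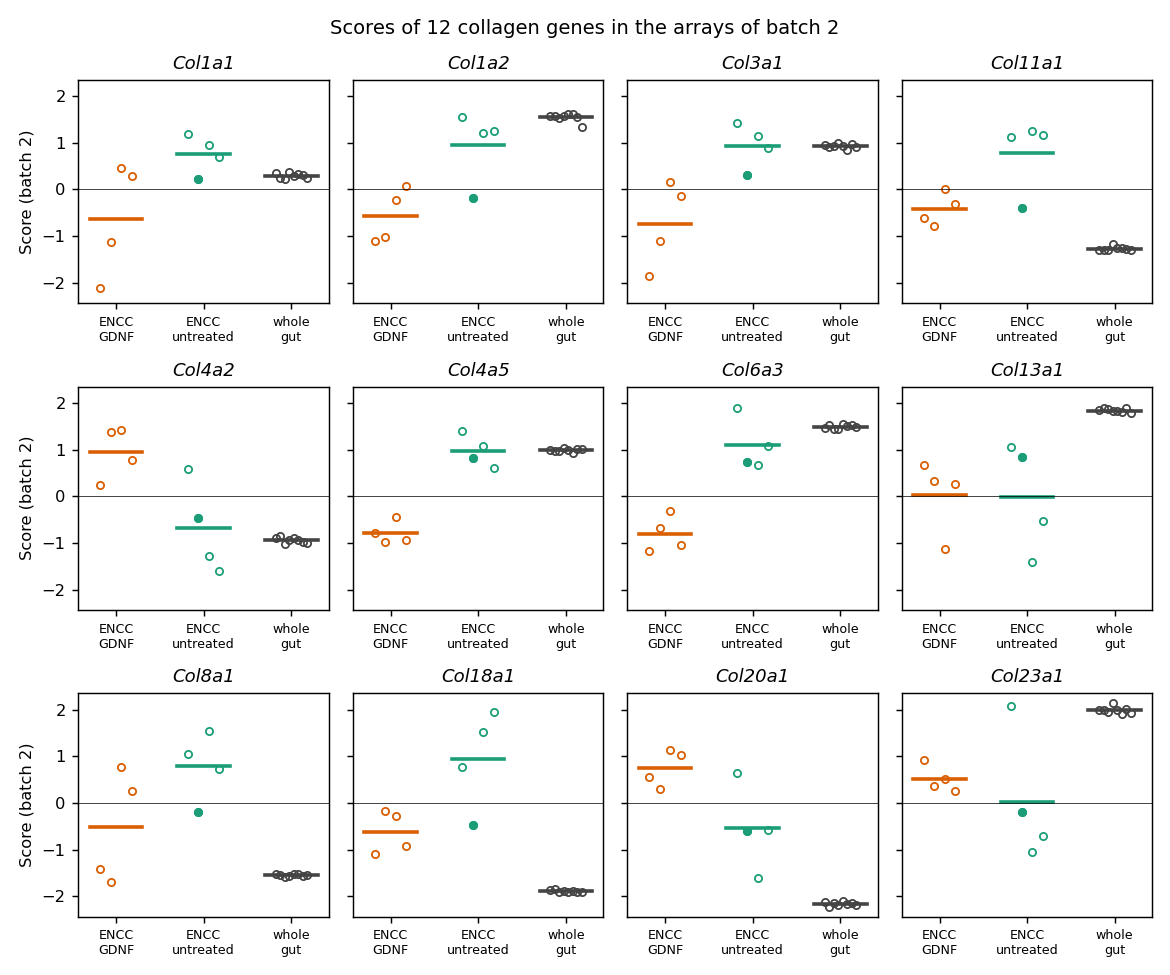
Scores (y axis) of 12 collagen genes in the arrays of batch 2: GDNF-treated ENCCs (4 wells), untreated ENCCs (4 wells, with gut 3 filled) and whole guts (8). Circles are arrays and bars group means; Col18a1, Col20a1 and Col11a1 lie above whole gut in every ENCC well, and Col13a1 below it.

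Col1a2, Col3a1, Col6a1, Col6a2 and Col6a3 were lower, while Col1a1 and Col6a5 (-0.10, adjusted p = 0.932) did not pass. Col6a3 scored -1.17, -0.69, -0.31 and -1.04 in treated wells of guts 2, 3, 8 and 9, against 1.44 to 1.54 in whole guts (median 1.5), a difference of -2.30 (limma SE 0.20, adjusted p = 3.3e-06). Col1a2 scored -1.11, -1.03, -0.22 and 0.07 in treated wells, against 1.33 to 1.62 in whole guts (median 1.57), a difference of -2.12 (SE 0.28, adjusted p = 7.8e-05). Col3a1 scored -1.84, -1.11, 0.17 and -0.15 in treated wells, against 0.86 to 0.99 in whole guts (median 0.93), a difference of -1.67 (SE 0.29, adjusted p = 0.000597). All 4 treated wells were below all whole guts for these genes, and guts 2 and 3 were the lowest for Col1a2 and Col3a1. Col1a1 scored -2.12, -1.13, 0.46 and 0.29 in treated wells, against 0.22 to 0.38 in whole guts (median 0.30), and was not called (-0.92, SE 0.36, adjusted p = 0.0673). Its wells lay on both sides of the whole guts, and it passed without gut 8 (-1.28, adjusted p = 0.0241) or gut 9 (-1.23, adjusted p = 0.0388). Col6a1 scored -2.21, -1.07, 0.46 and 0.68 in treated wells, against 0.86 to 0.97 in whole guts (median 0.90), a difference of -1.44 (SE 0.38, adjusted p = 0.00965). Col6a2 scored -1.12, -0.89, 0.54 and 0.63 in treated wells, against 0.92 to 1.00 in whole guts (median 0.96), a difference of -1.17 (SE 0.28, adjusted p = 0.00605). All treated wells lay below all whole guts for both genes, and both lost the call when the spread was taken from the ENCCs alone (adjusted p = 0.0808 and 0.0695). Without gut 2 Col6a1 was at -0.88 (adjusted p = 0.0533), and without gut 3 at -1.26 (adjusted p = 0.0553).

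Further fibrillar genes were lower, Col24a1 by -1.42, Col27a1 by -1.08 and Col5a1 by -1.0. Col24a1, a fibrillar chain of bone, scored -0.34, -0.77, 0.08 and -0.66 in treated wells, against 0.91 to 1.07 in whole guts (median 1.00; limma adjusted p = 0.000217). Col5a1 scored -1.89, -0.89, 0.06 and -0.14 in treated wells, against 0.14 to 0.40 in whole guts (median 0.32; adjusted p = 0.0317). All treated wells lay below all whole guts for both genes. Without gut 2 Col27a1 was at -0.66 (adjusted p = 0.118) and Col5a1 at -0.61 (adjusted p = 0.202), and neither passed, nor did they with the spread of the ENCCs alone (adjusted p = 0.0754 for Col27a1 and 0.0984 for Col5a1). Col5a1 also did not pass without gut 3 (-0.95, adjusted p = 0.111). Higher were Col5a3 (0.92) and Col11a1 (0.85). Col11a1 scored -0.61, -0.77, 0.00 and -0.31 in treated wells, against -1.31 to -1.18 in whole guts, with all 4 wells above (SE 0.20, adjusted p = 0.00511). Col5a3 scored 0.49, 0.51, -0.42 and -0.12 in treated wells, against -0.92 to -0.66 in whole guts (median -0.80; SE 0.25, adjusted p = 0.0132), again with all 4 wells above, and it did not pass without gut 2 (0.79, adjusted p = 0.0680) or gut 3 (0.79, adjusted p = 0.0777). Neither call held when the spread was taken from the ENCCs alone (adjusted p = 0.0623 for Col11a1 and 0.0595 for Col5a3). Col2a1 scored -0.63, -0.31, 1.09 and 0.05 in treated wells, against 0.23 to 0.71 in whole guts (median 0.37), and Col5a2 scored -0.30, 0.09, 0.69 and 0.39, against -0.12 to 0.27 (median -0.01). Their differences of -0.37 and 0.21 were not called, nor was that of Col11a2 (0.26).

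Type IV genes split. Col4a2 scored 0.24, 1.38, 1.42 and 0.78 in treated wells, against -1.03 to -0.84 in whole guts (median -0.93), a difference of 1.89 (limma SE 0.25, adjusted p = 6.8e-05). Col4a1 scored 0.01, 0.90, 1.28 and 0.90 in treated wells, against -0.16 to 0.08 in whole guts (median -0.01), a difference of 0.80 (SE 0.27, adjusted p = 0.0378). Gut 2 had the lowest treated well for both genes, and for Col4a1 it lay inside the range of the whole guts. The call of Col4a1 ended without gut 3 (0.76, adjusted p = 0.125), gut 8 (0.63, adjusted p = 0.183) or gut 9 (0.76, adjusted p = 0.128), and with the spread of the ENCCs alone (adjusted p = 0.101). Col4a5 scored -0.78, -0.97, -0.45 and -0.94 in treated wells, against 0.93 to 1.03 in whole guts (median 0.99), a difference of -1.77 (SE 0.18, adjusted p = 1.0e-05). Col4a6 scored -0.01, -1.26, -0.57 and -0.19 in treated wells, against 1.06 to 1.44 in whole guts (median 1.18), a difference of -1.72 (SE 0.32, adjusted p = 0.000887). Both were below all whole guts in every treated well.

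Among the other collagens Col20a1 was highest over whole gut. It scored 0.55, 0.30, 1.14 and 1.04 in treated wells, against -2.22 to -2.11 in whole guts (median -2.16), a difference of 2.92 (limma SE 0.20, adjusted p = 9.4e-07). Col18a1 scored -1.09, -0.17, -0.27 and -0.91 in treated wells, against -1.92 to -1.85 in whole guts (median -1.89), a difference of 1.28 (SE 0.20, adjusted p = 0.000312). Col16a1, a fibril-associated collagen, scored 0.27, 0.30, 0.59 and 0.03 in treated wells, against -1.0 to -0.72 in whole guts (median -0.88), a difference of 1.15 (SE 0.25, adjusted p = 0.00331). For these 3 genes all treated wells were above all whole guts. Col8a1 was at 1.03 and lost its call without gut 8 (0.60, adjusted p = 0.231) or gut 9 (0.77, adjusted p = 0.188), and with the spread of the ENCCs alone (adjusted p = 0.156). Lower were Col13a1, with 0.68, 0.34, -1.14 and 0.26 in treated wells against 1.79 to 1.89 in whole guts (-1.80, adjusted p = 0.000172), and Col23a1, with 0.92, 0.36, 0.52 and 0.26 in treated wells against 1.91 to 2.13 in whole guts (-1.48, adjusted p = 0.000210). Col6a4, at -1.42, Col14a1, at -1.39, Col22a1, at -1.10, and Col26a1, at -1.07, completed the lower side. Col22a1 lost its call without guts 2, 3 or 9 (-1.05 to -0.89, adjusted p up to 0.130) and Col26a1 without gut 3 (-0.92, adjusted p = 0.0501).

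Partner genes were compared with whole gut in the same fits, in which 16.0% of all genes were higher and 15.9% lower in treated ENCCs, and 9.01% and 11.7% in untreated ENCCs. Of the 21 synthesis and export genes, 2 were higher and 3 lower in treated ENCCs than in whole gut, and 5 were higher and 0 lower in untreated ENCCs. In treated ENCCs P4hb (-2.92), Crtap (-1.30) and Plod2 (-0.84) were lower and Mia3, an export factor of collagen (1.42), and Plod1 (0.88) higher. In untreated ENCCs the lysyl hydroxylases Plod1 and Plod3 were each higher by 1.64 and P3h2 by 1.56. Of 14 collagen-binding proteins 2 were higher and 4 lower in treated, and 6 higher and 4 lower in untreated ENCCs. Postn, which encodes periostin, was higher in treated (2.28) and in untreated ENCCs (3.02), as was Bgn (0.84 and 2.67), while Lum, which encodes lumican (-2.34 and -1.88), and Dcn, which encodes decorin (-1.82 and -1.39), were lower in both. Of 11 basement membrane partners 2 were higher and 4 lower in treated, and 3 higher and 1 lower in untreated ENCCs. Agrn, which encodes agrin, was higher in both (1.35 and 1.24) and the nidogen Nid2 lower in both (-2.49 and -1.83), while Lama4 was higher in treated (1.62) and Lama2 in untreated ENCCs (2.48). Of 12 trimming and crosslinking genes 2 were higher and 3 lower in treated, led by Tll2 (2.21) and Tgm2 (-1.61), and 3 were higher and 1 lower in untreated ENCCs, led by Loxl3 (1.89) and Tgm2 (-1.11). Of 10 receptors 3 were higher and 1 lower in treated, led by Adgrg6 (1.69) and Ddr2 (-1.48), and 3 were higher and 0 lower in untreated ENCCs, led by Ddr1 (1.64).

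Against the same shares of all genes (15.9% lower in treated and 11.7% lower in untreated ENCCs), 9 of 14 gut mesenchyme markers were lower and 0 higher in treated ENCCs than in whole gut, and 4 were lower and 1, Prrx1, higher in untreated ENCCs. Their mean score ran from -0.53 to -0.11 in treated wells, from 0.25 to 0.55 in untreated wells and from 0.81 to 1.01 in whole guts. Of 10 smooth muscle markers 8 were lower in treated and 6 in untreated ENCCs, and of 6 mesothelium markers 5 in each. Of 6 ribosomal protein genes 4 were lower in treated and 0 in untreated ENCCs. The part of these markers in the collagen differences was not tested.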

How the data were processed

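Biotin-labelled RNA was read on 33 Affymetrix arrays, 17 in batch 1 and 16 in batch 2. The submitters' processing notes name RMA, without a version. The values the authors deposited are scores: on each array 45101 probe sets hold the normal quantiles of their ranks (-4.0836 to 4.0836, median 0, largest deviation 5e-06), as read from the values. Over the 7 ENCC RNAs read in both batches the mean of a probe set varied with an SD of only 0.0585 in batch 1 and 0.117 in batch 2, so probe sets were apparently centred on them. Brightness is not kept, so no dim probe set was removed. The number of arrays limits the precision.

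Of the probe sets, 34958 had 1 symbol, 932 several and 9211 none. Control probe sets were left out, and 34945 probe sets were averaged to 18193 genes. The number in a sample title was taken as the gut. For GDNF, limma (3.58.1, R 4.3.3, statmod 1.5.0) was fitted to within-gut, within-batch differences of 9 guts. Guts 3, 8 and 9 entered as the mean over both batches, and the treated array of gut 2 in batch 1 had no partner and was left out. That 1 gut filled both wells comes from the labels. Deviations of paired wells correlated with r of 0.0300 to 0.284 (median 0.137, 12 pairs), and in 7 of the 12 the treated well correlated more with the untreated well of another gut. For whole gut, batch 2 alone was used, with arrayWeights by group. P-values were adjusted over all genes and measure the spread between these samples. In the whole gut fits the weight of a group was shared by all genes (0.1 for untreated ENCCs against 3.164 for whole guts). The SE of a gene there need not follow the spread of its own wells, as for Col23a1 in untreated wells (SD 1.41, SE 0.42). The fits were also run on simulated data with known changes. Those values were drawn independently for each gene, without batches or ranking, so that run cannot vouch for the calls in these data.

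The members, lists and tests were chosen with earlier results of these data known. Per-sample values are given for Col1a1, Col1a2, Col3a1, Col5a1, Col5a2, Col2a1, Col11a1, Col4a1, Col4a2, called type IV genes, Col6a1, Col6a2, Col6a3, Col18a1, and the 3 called genes with the largest difference per comparison, class and direction; of each list up to 3 called genes per direction are named. Prrx1, Pdgfra, Foxf1, Tcf21 and Nkx2-3, as markers, were named after their values were seen. Alternatives were no pairing, single batches, other probe set summaries, hybridisation controls in the fit, 1 variance, and leaving out each replicate. The spread of the ENCCs alone was added after seeing the data.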

Additional observations from a re-analysis of the deposited data

Results flagged for a closer look

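Single samples lay far from the rest of their group in 13 of 168 groups examined (42 genes, each in 3 groups of batch 2 scores and 1 of within-gut differences), a gap that chance gives in about 1 in 20 groups. In untreated ENCCs of batch 2 the well of gut 3, whose array stood apart, was the lowest for Col11a1 (-0.41), Col16a1 (-1.63) and Col5a2 (-1.47) and the highest for Col4a3 (1.59) and Col9a2 (0.43). The untreated well of gut 9 was the lowest for Col17a1 (-1.77). Among treated wells, gut 2 was the highest for Col11a2 (2.43). Among the differences between treated and untreated wells, gut 2 was apart for Col5a1 (-3.55) and Col4a3 (0.92), and gut 4 for Col6a3 (2.45) and Col9a1 (1.48). Among whole guts, gut 4 was the highest for Col11a1 (-1.18) and gut 8 the lowest for Col1a2 (1.33), within ranges that are narrow beside those of the wells. The causes were not tested.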

How the results depend on the processing

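No collagen gene that was called changed sign under any alternative run. For GDNF, 3 genes were called higher and 16 lower. With no replicate block the counts were 3 and 13, with 16 of the 19 genes called again, and Col6a1, Col6a2 and Col6a3 lost the call. In batch 2 alone both counts were 0, with 4 guts in the fit, and in batch 1 alone they were 3 and 13. With the hybridisation controls in the fit 1 was higher and 15 lower, with 14 of the 19 genes called again. Col4a1, Col4a2, Col6a1, Col6a2 and Col6a3 lost the call, 2 genes (Col9a1 and Col25a1) were called only there, and the cause was not tested. Leaving out 1 gut gave 3 to 4 higher and 13 to 17 lower, and 3 of 3 and 13 of 16 kept the call each time. For untreated ENCCs against whole gut, 6 higher and 5 lower became 14 and 9 with 1 variance for both groups, and the cause was not tested. Leaving out 1 sample gave 4 to 9 higher and 3 to 7 lower, with 3 lower without the untreated well of gut 2 or of gut 8, and 4 of 6 and 2 of 5 kept the call each time. For GDNF-treated ENCCs against whole gut, 8 higher became 4 when the spread was taken from the ENCCs alone, an alternative added after seeing the data. Leaving out 1 sample gave 6 to 8 higher and 12 to 18 lower, and 5 of 8 and 11 of 16 kept the call each time. Rank scores keep neither brightness nor a shift shared by all genes, and whole guts were read in 1 batch only.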

Other observations

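Collagen probe sets differed in how well they repeated between batches over the 7 RNAs read in both. All probe sets of Col27a1, Col1a1, Col3a1 and Col18a1 had r of at least 0.902, while those of Col4a3 had -0.688 and -0.062, and those of Col1a2 0.955, 0.952 and -0.224. The probe set of Col1a2 with the negative r had a GDNF difference of -1.5, against -1.07 and -1.09 for the other two. These correlations, over 7 RNAs that share the scaling, are descriptions.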
